A study of Mus musculus with 8 samples.

Results

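The levels of 10 adipocyte genes, Adipoq, Fabp4, Plin1, Pparg, Cfd, Lpl, Lep, Cidec, Lipe and Retn, were examined in sections of mouse undifferentiated pleomorphic sarcoma (UPS) as markers of fat. They were taken by gene symbol from the deposited table of raw counts, where all 10 were found among 26667 genes. RNA was extracted from formalin-fixed, paraffin-embedded tumour sections and sequenced from ribosomal RNA-depleted stranded libraries, with 1 library for each of 4 KP tumours (KP 5 to KP 8) and 4 KPH2 tumours (KPH2 1 to KPH2 4). KP mice carried Trp53 fl/fl, and KPH2 mice carried the alleles of KP mice together with Epas1 fl/fl, a floxed allele of the gene that encodes HIF-2α. Tumours of both groups arose in hind limb muscle of adult mice after injection of an adenovirus expressing Cre, so the floxed alleles were recombined only in infected cells and their descendants. Host cells in a KPH2 section that were not infected would keep Epas1, and recombination was not measured by cell type here. KPH2 1 is missing from the authors' table of normalized values for 7 tumours, and it is shown apart.

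White adipocytes store triglyceride in 1 large lipid droplet and release fatty acids from it during fasting. PPARγ, encoded by Pparg, works with C/EBP factors to switch on the genes of droplet coating, fatty acid uptake and hormone secretion. Fat lies between and around the muscles of the mouse hind limb, so a section through a limb tumour can include it. Of the 10 genes, 6 (Adipoq, Plin1, Cidec, Lep, Retn and Cfd) are used mostly by mature adipocytes and are called restricted here. The other 4 (Fabp4, Lpl, Pparg and Lipe) are also used by endothelial cells, macrophages or muscle and are called shared. In bulk RNA, fewer cells of a type and less RNA per cell cannot be told apart.

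The restricted genes had few counts in 7 of the 8 tumours and most of their counts in KP 8, a KP tumour. Their summed counts were 14, 4, 23 and 166 in KP 5, 6, 7 and 8, and 29, 17 and 4 in KPH2 2, 3 and 4, with 8 in KPH2 1. Scaled to counts per 1e+06 of the TMM library size (CPM), this was 12.5 CPM in KP 8 (95% exact Poisson interval 10.7 to 14.6) and 1.5 CPM (1.08 to 2.04) in KP 5 to 7 pooled. The pooled level in KPH2 2 to 4 was 1.67 CPM (1.24 to 2.20), and KPH2 1 lay at 0.638 CPM (0.276 to 1.26). All 4 KP tumours pooled gave 5.10 CPM (4.43 to 5.84), above the interval of KPH2 2 to 4, whereas the interval of KP 5 to 7 overlapped it. The reads carry no molecular identifiers, so these intervals, and those of shares given later, cover counting error only and not the spread between tumours.

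Total counts ran from 6463221 to 13155510 per tumour, and 3 counts corresponded to 0.222 to 0.444 CPM. Epas1 (chromosome 17, 86753864 to 86833410, GRCm38) was the targeted gene, with CPM values of 59.1, 83.0, 86.7 and 83.9 for KP 5 to 8, 53.3, 37.7 and 42.4 for KPH2 2 to 4, and 32.6 for KPH2 1. Every KPH2 tumour was below every KP tumour. By the quasi-likelihood test of edgeR, its log2 fold change was −0.81 (SE 0.19), with an adjusted p of 0.0742 over 14867 genes (Benjamini-Hochberg). With edgeR the adjusted p was 0.117 over all 8 tumours, 0.0442 (without KP 5) to 0.219 (without KPH2 4) with a tumour left out, and 0.654 with the mean log2 CPM of muscle markers as covariate (log2 fold change −0.61), and with DESeq2 it was 0.00763. Over these 7 tumours 185 genes were higher and 107 lower in KPH2, which is 1.96% of the genes tested, against 1 gene (0.00675%) when KPH2 1 was included.

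Of the secreted adipocyte hormones, Adipoq encodes adiponectin, which raises insulin sensitivity. Adipoq (chromosome 16, 23146536 to 23157968) had 32 counts in KP 8, against 1, 0 and 3 in KP 5, 6 and 7, 1, 4 and 1 in KPH2 2, 3 and 4, and 2 in KPH2 1. On the CPM scale KP 8 was at 2.41 and the other 7 tumours between 0 and 0.444. Lep (chromosome 6, 29060221 to 29073876) encodes leptin, the satiety hormone that fat releases in proportion to its mass. Lep had 38 counts in KP 8 and 5 in KP 7, with 0 in KP 5, KP 6, KPH2 1, KPH2 3 and KPH2 4 and 2 in KPH2 2. It was thus above 3 counts in KP 8 and KP 7 alone, at 2.86 and 0.740 CPM.

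Cfd (chromosome 10, 79890853 to 79892655) encodes adipsin, or complement factor D, a serine protease of the alternative complement pathway that fat secretes. Cfd had 50 counts in KP 8, 7, 0 and 6 in KP 5, 6 and 7, and 20, 9 and 2 in KPH2 2, 3 and 4, with 4 in KPH2 1. Its second highest tumour was a KPH2 tumour, KPH2 2, at 1.8 CPM against 3.77 CPM in KP 8. Retn (chromosome 8, 3655770 to 3659818) encodes resistin, which mouse adipocytes secrete. Retn had 4 counts in KP 8 and 3 or fewer in every other tumour, 10 in all, so no difference between tumours was detectable at this depth.

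The promoters of Cfd, Lep and Adipoq are shown because these 3 genes held the most counts of the restricted genes in KP 8. Each is the 250 bases before the RefSeq start on the plus strand of GRCm38.p6, at chr10:79890603-79890852, chr6:29059971-29060220 and chr16:23146286-23146535, and capitals mark a C/EBP motif.
Cfd: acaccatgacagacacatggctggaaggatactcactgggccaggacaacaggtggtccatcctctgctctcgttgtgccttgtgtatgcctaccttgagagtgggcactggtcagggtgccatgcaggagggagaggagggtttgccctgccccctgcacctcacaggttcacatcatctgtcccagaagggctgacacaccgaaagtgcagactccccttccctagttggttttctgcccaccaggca
Lep: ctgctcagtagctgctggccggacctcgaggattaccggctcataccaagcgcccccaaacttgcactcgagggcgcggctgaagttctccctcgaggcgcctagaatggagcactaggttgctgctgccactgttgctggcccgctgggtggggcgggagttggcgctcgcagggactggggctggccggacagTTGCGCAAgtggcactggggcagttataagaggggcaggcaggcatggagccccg
Adipoq: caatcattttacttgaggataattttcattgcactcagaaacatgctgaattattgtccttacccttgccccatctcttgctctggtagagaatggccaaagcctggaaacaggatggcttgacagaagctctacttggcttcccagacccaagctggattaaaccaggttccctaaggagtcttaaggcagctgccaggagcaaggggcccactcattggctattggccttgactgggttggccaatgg
The palindrome TTGCGCAA lay in the Lep promoter, starting 55 bases before the start, and in 0.164% of 32851 promoter windows of the same length. Its looser form TTNNGCAA, which overlaps it, was found in 9.564% of windows and in a window of Lep, Cidec, Pparg and Plin1. TATAAA was found in 12.368% of windows and, among the 8 members with a window, in 1 window of Pparg. ACGTG, a form of the HIF core, was found in 16.572% of windows and, among the 8 members with a window, in Lipe alone, on both strands at overlapping bases. Other forms of the HIF core were not searched. PPARγ and its partner RXR bind 2 copies of AGGTCA spaced by 1 base, and an exact match was found in 0.033% of windows and in 0 of the 8 members with a window. Fabp4 and Lpl had no window and were not searched. Motifs were sought on both strands, and a match is a run of letters only. The Cfd and Adipoq windows held none of these letters.

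Both genes of lipid droplet proteins were also highest in KP 8. Plin1 (chromosome 7, 79721164 to 79732904) encodes perilipin 1, the coat of the adipocyte droplet that gates access of lipases. Plin1 had 17 counts in KP 8, against 2, 2 and 1 in KP 5, 6 and 7, 1, 3 and 0 in KPH2 2, 3 and 4, and 0 in KPH2 1. KP 8 was the single tumour above 3 counts. Cidec (chromosome 6, 113424634 to 113435760) encodes a protein that fuses lipid droplets into a larger one. Cidec had 25 counts in KP 8, 4, 1 and 7 in KP 5, 6 and 7, 2, 1 and 1 in KPH2 2, 3 and 4, and 1 in KPH2 1. KP 7 was second for Cidec at 1.04 CPM, next to 1.88 CPM in KP 8, and the remaining 6 tumours lay at or below 0.296 CPM.

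**Figure D1:**
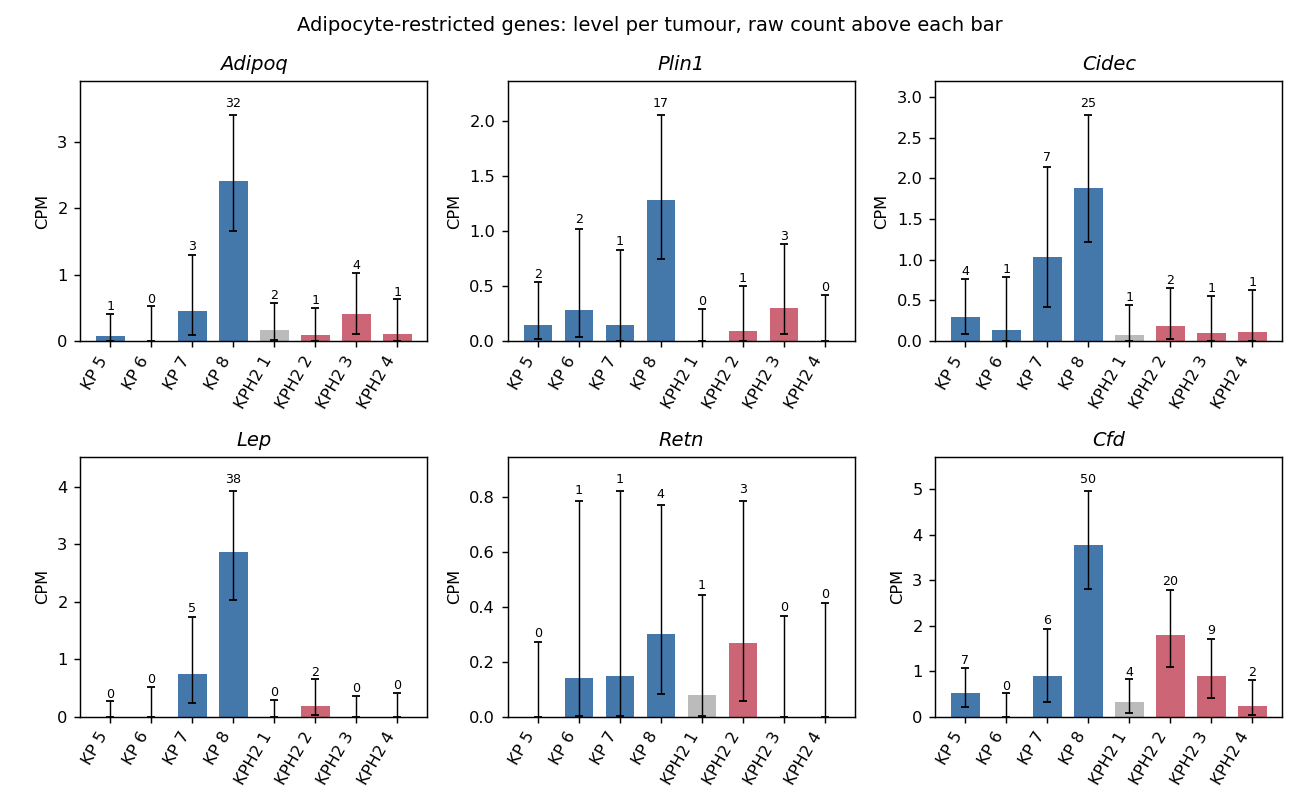
CPM of the 6 restricted genes in each tumour (KP blue, KPH2 2 to 4 red, KPH2 1 grey), with 95% exact Poisson intervals as error bars and the raw count above each bar. KP 8 is the highest tumour for all 6 genes, with 4 counts for Retn and 17 to 50 for the others.

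KP 8 was the highest tumour for 6 of 6 restricted genes on the CPM scale, and also for 6 of 6 on the authors' regularized log2 (rlog) scale over all 8 tumours. On that scale, which shrinks genes of low counts toward their mean, Lep ran from 0.915 to 2.89 and Adipoq from 1.32 to 2.89. KP 8 supplied 15.2% of all counts of the 8 libraries but 84.4% of those of Lep (95% Clopper-Pearson interval 70.5 to 93.5%). Its share was 72.7% (57.2 to 85.0%) for Adipoq, 65.4% (44.3 to 82.8%) for Plin1, 59.5% (43.3 to 74.4%) for Cidec and 51.0% (40.7 to 61.3%) for Cfd. For Retn it was 40.0% (12.2 to 73.8%), an interval that holds the share of the library. The restricted genes together placed 166 of 265 counts in KP 8, or 62.6% (56.5 to 68.5%).

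**Figure D2:**
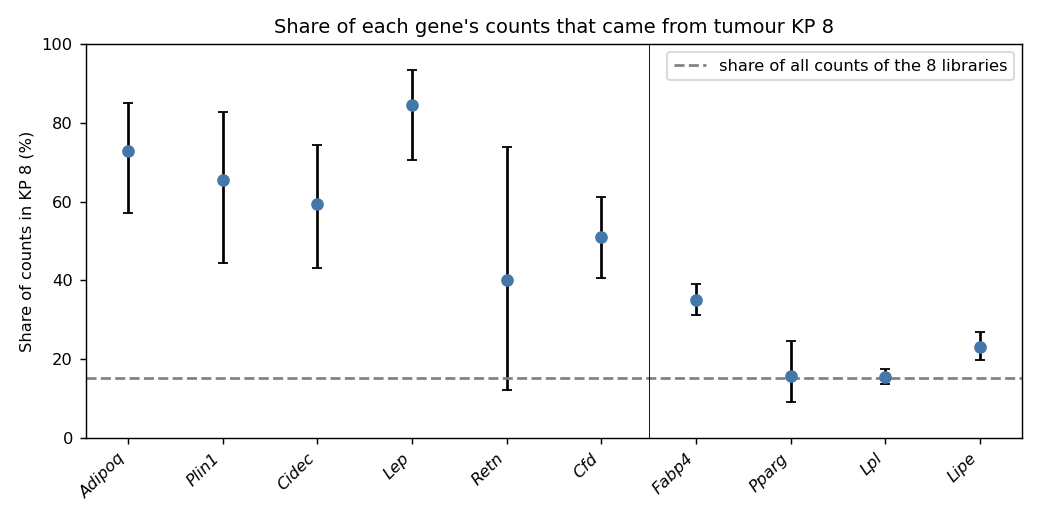
Percentage of each gene's counts over the 8 tumours that came from KP 8, with 95% Clopper-Pearson intervals; the intervals cover counting error only, the dashed line is the share of KP 8 in all counts (15.2%) and the vertical line parts restricted (left) from shared genes. The intervals of Adipoq, Plin1, Cidec, Lep, Cfd, Fabp4 and Lipe lie above the line, and those of Retn, Pparg and Lpl include it.

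None of the 6 restricted genes passed edgeR's filter on low counts, so they have no adjusted p. An exact 2-sided permutation test on mean log2 CPM over the 35 splits of the 7 tumours, whose smallest possible p is 0.0286, gave p = 0.743 for Adipoq, 0.429 for Lep, 0.886 for Cfd, 0.486 for Retn, 0.343 for Plin1 and 0.171 for Cidec, without adjustment for the 10 members. The difference, KPH2 2 to 4 minus KP, was −0.54 for Adipoq, −1.24 for Lep, 0.14 for Cfd, −0.32 for Retn, −0.82 for Plin1 and −1.31 for Cidec. Without KP 8 it was 0.20 for Adipoq, −0.43 for Lep, 0.84 for Cfd, −0.11 for Retn, −0.33 for Plin1 and −0.84 for Cidec. A shift upward follows from KP 8 being the highest tumour for all 6 genes, and the sign for Adipoq changed.

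The shared genes did not follow KP 8 as a group. Fabp4 (chromosome 3, 10204342 to 10208616) encodes the fatty acid binding protein of adipocytes, which capillary endothelium and macrophages also make. The CPM of Fabp4 was 3.56, 9.04, 9.77 and 16.2 for KP 5, 6, 7 and 8 in turn, 3.5, 3.10 and 4.39 for KPH2 2, 3 and 4, and 8.86 for KPH2 1. KP 5 lay among the KPH2 tumours, and KPH2 1 among the KP tumours, so the groups overlapped. The KP mean of Fabp4 was 9.64 ± 5.18 CPM (SD, n = 4), and that of KPH2 2 to 4 was 3.66 ± 0.660 CPM (SD, n = 3). This gave a log2 fold change of −1.40 (SE 0.47, adjusted p = 0.174 from edgeR), and including KPH2 1 gave −0.95 (SE 0.49, adjusted p = 0.405 from edgeR). Without KP 5 it was −1.67 with an adjusted p of 0.0449 from edgeR, the only left-out tumour that took a member past 0.05, and without KP 8 it was −1.01 (adjusted p = 0.291 from edgeR). The exact 2-sided permutation test gave p = 0.0857.

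Lpl (chromosome 8, 68880555 to 68906932) encodes lipoprotein lipase, which frees fatty acids from circulating lipoproteins and is made by fat, muscle and macrophages. The CPM of Lpl was 17.6, 26.3, 8.73 and 17.2 for KP 5, 6, 7 and 8 in turn, 15.4, 36.2 and 15.6 for KPH2 2, 3 and 4, and 6.38 for KPH2 1. It was highest in KPH2 3 and lowest in KPH2 1, and KP 8 held 15.6% of its counts (13.8 to 17.5%), close to the share of its library. The log2 fold change was 0.36 (SE 0.42, adjusted p = 0.714 from edgeR).

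Lipe (chromosome 7, 25379527 to 25398486) encodes hormone-sensitive lipase, which releases stored fatty acids in fat and muscle. The CPM of Lipe was 5.19, 5.23, 7.70 and 9.34 for KP 5, 6, 7 and 8 in turn, 7.28, 6.69 and 6.30 for KPH2 2, 3 and 4, and 3.75 for KPH2 1. KP 8 was again the highest tumour, with 23.2% of the counts (19.7 to 27.0%), KPH2 2 to 4 lay within the KP range, and KPH2 1 lay below it. The log2 fold change was −0.03 (SE 0.28, adjusted p = 0.976 from edgeR). Pparg (chromosome 6, 115360879 to 115490404), the master regulator of fat cells, had 6 to 19 counts per tumour. The CPM of Pparg was 1.41, 0.847, 0.888 and 1.13 for KP 5, 6, 7 and 8 in turn, 1.44, 0.799 and 1.24 for KPH2 2, 3 and 4, and 1.12 for KPH2 1. Its counting intervals overlapped in all 8 tumours, KP 8 held 15.8% of its counts (9.12 to 24.7%), and the log2 fold change was 0.09 (SE 0.39, adjusted p = 0.938 from edgeR). Gm44079 overlaps Pparg and 4732471J01Rik overlaps Lipe on the opposite strand. Whether the counting used strand is not given in the sources used here.

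**Figure D3:**
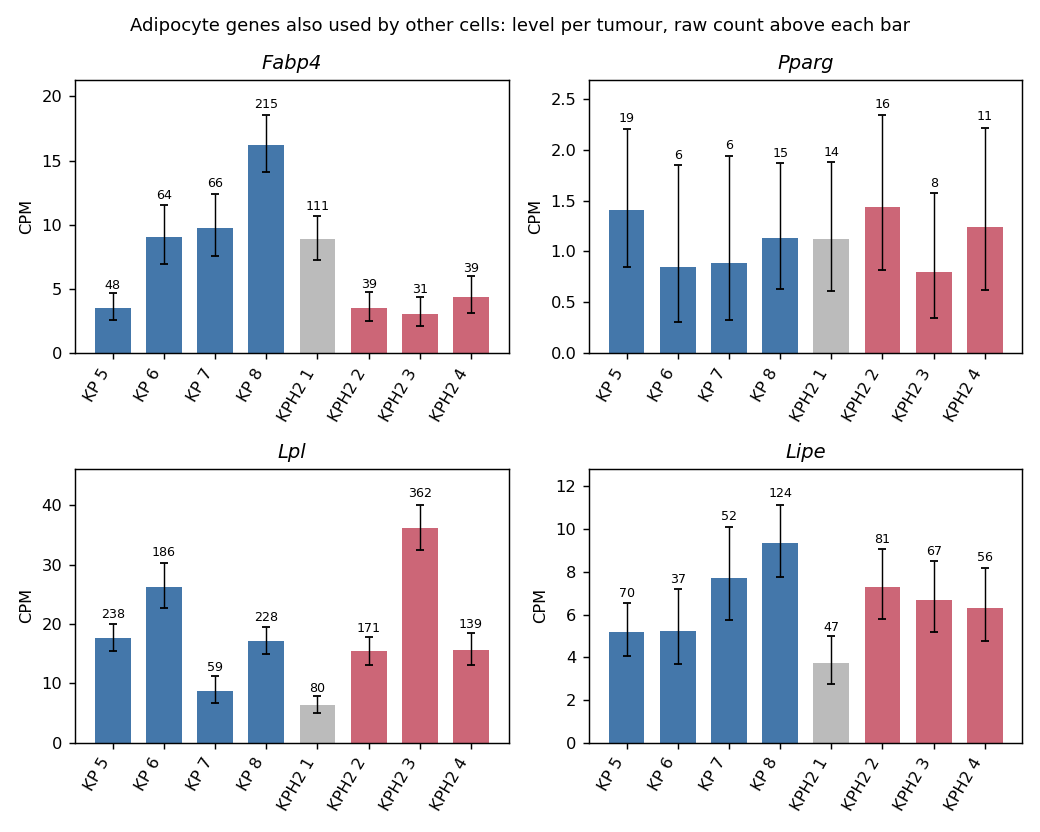
CPM of the 4 shared genes in each tumour (KP blue, KPH2 2 to 4 red, KPH2 1 grey), with 95% exact Poisson intervals as error bars and the raw count above each bar. Fabp4 and Lipe are highest in KP 8 (16.2 and 9.34 CPM), Lpl in KPH2 3 (36.2 CPM) and Pparg in KPH2 2 (1.44 CPM).

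Of the 10 members, 4 were tested by edgeR and 0 passed an adjusted p of 0.05, against 1.96% of all tested genes, with 1 of 4 (Fabp4) at an unadjusted p under 0.05, against 17.8%. Groups that did not overlap were found for 0 of the 4, against 16.9% of all tested genes. The median log2 fold change of the 4 was 0.03 and that of all tested genes −0.02. With DESeq2, 0 of the members were called, against 7.95% of 14832 genes, and Fabp4 had an adjusted p of 0.0581.

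Expressed per kb of exon, the order in KP 8 was Cfd at 4.09 CPM per kb, Fabp4 at 3.61, Adipoq at 1.75, Lpl at 1.64, Lipe at 1.59, Cidec at 1.01, Lep at 0.854, Pparg at 0.383, Plin1 at 0.275 and Retn at 0.191 CPM per kb. The length was the union of exons over all GENCODE transcripts (0.922 kb for Cfd, 4.489 kb for Fabp4 and 10.478 kb for Lpl). It is at least as long as any single transcript, so the order depends on this choice of length. As the median of the other 7 tumours, Lpl led at 1.49 CPM per kb, followed by Lipe at 1.07, Fabp4 at 0.977, Cfd at 0.563 and Pparg at 0.378 CPM per kb. The other 5 lay between 0 for Lep and 0.0815 CPM per kb for Adipoq. By this median the shared genes Lpl, Lipe and Fabp4 led every restricted gene. Over all 8 tumours the SD of log2 CPM was 1.49 for Lep, 1.36 for Cfd and 1.18 for Adipoq, and 0.28 for Pparg and 0.39 for Lipe. The SD of the log2 ratio between members ran from 0.56 for Cidec and Lep to 1.17 for Retn and Cfd over the 15 pairs of restricted genes, and from 0.49 for Pparg and Lipe to 1.37 for Fabp4 and Lpl over the 6 pairs of shared genes.

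Marker genes of other cell types were summed in the same way. Of 15 liver and plasma protein genes, a list written after their values were seen, 15 were highest in KP 8, with 943 summed counts there and 21 to 105 in each of the other tumours. Alb, which encodes serum albumin, had 372 counts in KP 8 and 1 to 21 in the others. Both sets were thus highest in KP 8, and RNA from tissue in the section and RNA from elsewhere cannot be told apart with these files for either set. Pck1, the gluconeogenic and glyceroneogenic enzyme of liver and fat, had 22 of its 27 counts in KP 8. The sum of 10 macrophage markers was 3683 CPM in KP 8 and 2070 to 4234 CPM over KP tumours, and that of 10 endothelial markers was 508 CPM in KP 8 and 355 to 655 CPM over KP tumours. KP 8 thus stood inside the KP range for both, as it did for 15 skeletal muscle markers at 2783 CPM (1631 to 2960 CPM).

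The muscle sum separated KPH2 2 to 4 from the KP tumours, as the sum of the restricted genes did not. In KPH2 2, 3 and 4 the muscle sum was 10828, 17041 and 3633 CPM, above every KP tumour, while KPH2 1 lay at 1308 CPM. Ttn made up most of the sum, with a mean of 1729 CPM in KP and 7828 CPM in KPH2 2 to 4. Of single muscle markers, Myh1, Actn3, Ryr1, Mb and Ttn alone had groups that did not overlap, next to 16.9% of all tested genes. All 15 muscle markers had a positive log2 fold change (median 2.12), 15 of 15 had an unadjusted p under 0.05 and 0 passed the adjusted p from edgeR, next to 17.8% and 1.96% of all tested genes. Ckm was at 2.82 to 31.0 CPM in KP and 17.3 to 108 CPM in KPH2 2 to 4, and Acta1 at 54.9 to 193 and 167 to 941 CPM. The macrophage sum was 1535 to 2283 CPM and the endothelial sum 356 to 362 CPM in KPH2 2 to 4, with 10 of 10 and 8 of 10 log2 fold changes below 0. The macrophage and endothelial lists had 6 of 10 and 5 of 10 genes at an unadjusted p under 0.05 and 0 past the adjusted p from edgeR, against the same shares of all tested genes. Of their defining genes, Cd68 was at 35.3 to 53.0 CPM in KP and 28.4 to 41.6 CPM in KPH2 2 to 4, and Adgre1, listed as Emr1, at 149 to 272 and 109 to 183 CPM. Pecam1 was at 77.2 to 149 and 60.1 to 72.9 CPM, and Cdh5 at 54.6 to 133 and 57.1 to 72.4 CPM. Fabp4, made by both of these cell types, was lowest in KP 5 and KPH2 2 to 4, which had low sums of both, but KPH2 1 also had low sums (2099 and 261 CPM) and was at 8.86 CPM of Fabp4. The part of these cells in the value of Fabp4 was not tested. Fabp4 had a log2 fold change of −1.04 (adjusted p = 0.777 from edgeR) in a fit with the mean log2 CPM of the muscle markers as covariate, and in that fit Lpl changed sign to −0.20.

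**Figure D4:**
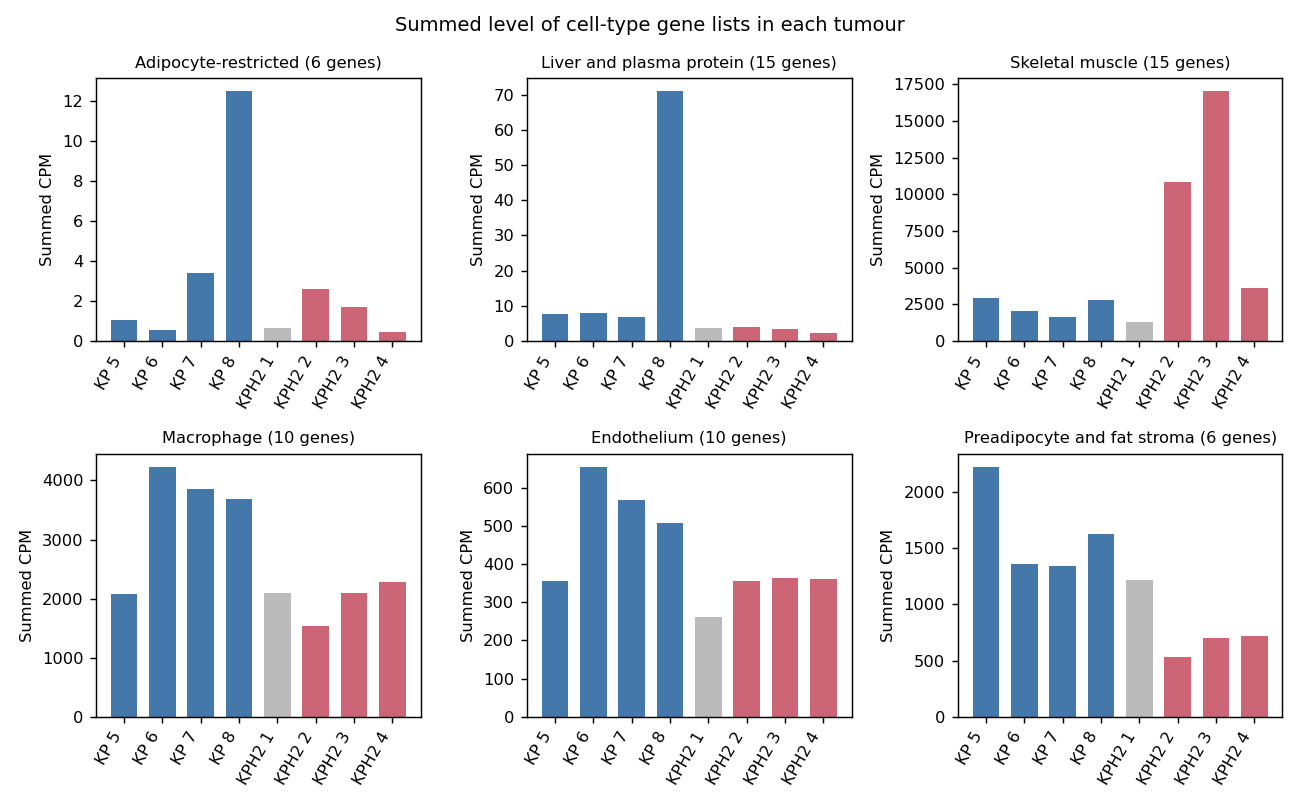
Summed CPM of 6 gene lists in each tumour (KP blue, KPH2 2 to 4 red, KPH2 1 grey), each panel on its own linear axis from 0. The restricted adipocyte genes and the liver and plasma protein genes peak in KP 8 (12.5 and 71.0 CPM), and the muscle genes in KPH2 2 and KPH2 3 (10828 and 17041 CPM).

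Fat stroma was described by 6 genes of preadipocytes and fibroblast-like cells. Pdgfra, a receptor tyrosine kinase that marks adipocyte progenitors and many other mesenchymal cells, fell in KPH2 tumours. The mean of Pdgfra was 995 ± 341 CPM (SD, n = 4) over KP and 245 ± 25.5 CPM (SD, n = 3) over KPH2 2 to 4, a log2 fold change of −2.02 (SE 0.27, adjusted p = 0.0183 by edgeR). KPH2 1 lay at 638 CPM, and including it gave an adjusted p of 0.160 by edgeR. It was the only 1 of the 6 past the threshold, next to 1.96% of all tested genes, and all 6 had log2 fold changes below 0 (median −1.06). With KPH2 1 included the median was −0.58, and the value for Dlk1, a preadipocyte surface protein, went from −3.37 to −0.22. The sum of the 6 was 1629 CPM in KP 8, inside the KP range of 1343 to 2227 CPM, and it was 531 to 715 CPM in KPH2 2 to 4 and 1222 CPM in KPH2 1.

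A wider set of 52 genes of fat cells was examined by role, of which 42 passed the filter. In it 1 gene was higher, 0 were lower and 12 had an unadjusted p under 0.05, next to 1.96% and 17.8% of all tested genes at these thresholds, with 16 log2 fold changes above and 26 below 0 and a median of −0.09. The gene that rose was Slc27a1, which encodes the fatty acid transporter FATP1 of fat and muscle. The CPM of Slc27a1 was 14.5, 12.7, 20.3 and 13.3 for KP 5, 6, 7 and 8 in turn, 46.0, 43.8 and 51.0 for KPH2 2, 3 and 4, and 35.8 for KPH2 1. Every KPH2 tumour was above every KP tumour, and the log2 fold change was 1.63 (SE 0.19, adjusted p = 0.0153 from edgeR). With KPH2 1 included it was 1.54, with an adjusted p of 0.0681 from edgeR, and in the fit with muscle markers as covariate 1.84, with an adjusted p of 0.114.

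The next 2 genes by p did not pass. Mest, an imprinted gene linked to fat cell enlargement and also used in muscle development, was at 45.3 to 62.1 CPM in KP and at 196, 1406 and 86.5 CPM in KPH2 2, 3 and 4, with 321 CPM in KPH2 1. Its log2 fold change was 3.33 (SE 0.83, adjusted p = 0.0879 from edgeR), and 0.48 in the fit with muscle markers as covariate (adjusted p = 0.957 from edgeR). Leaving out KPH2 3 gave 1.34 for Mest, and leaving out KPH2 4 gave 3.84 with an adjusted p of 0.0474 from edgeR. Ebf2, a transcription factor of adipocyte precursors and brown fat, had CPM values of 5.63, 26.0, 7.85 and 7.31 for KP 5, 6, 7 and 8 in turn, 1.08, 3.30 and 1.35 for KPH2 2, 3 and 4, and 1.92 for KPH2 1. Its log2 fold change was −2.60 (SE 0.68, adjusted p = 0.103 from edgeR). For Ebf2 the fit with muscle markers as covariate gave −2.03 (adjusted p = 0.738 from edgeR), and leaving out a tumour gave adjusted p from 0.0802 to 0.273. DESeq2 gave Mest an adjusted p of 0.00648 and Ebf2 one of 0.00127.

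By role, 7 of 8 transcription factors had a log2 fold change below 0 (median −0.56), as did 9 of 12 tested genes of fatty acid and triglyceride synthesis (median −0.06). Cebpa, the C/EBP partner of PPARγ, was at 23.2 to 37.0 CPM in KP and 22.7 to 29.4 CPM in KPH2 2 to 4. Fasn, fatty acid synthase, was at 171 to 311 CPM in KP and 273 to 328 CPM in KPH2 2 to 4. Of uptake and storage genes 5 of 10 were below 0 (median 0.02), of lipolysis genes 2 of 3 (median −0.34), and of hormone receptors and secreted factors 1 of 6 (median 0.47). Of the brown and beige fat genes 2 of 3 were below 0 (median −0.34, and −0.0099 with KPH2 1 included), and Cidea had 1 count over all 8 tumours. G0s2, an inhibitor of the lipase of fat droplets, had 0 counts in every tumour.

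**Figure D5:**
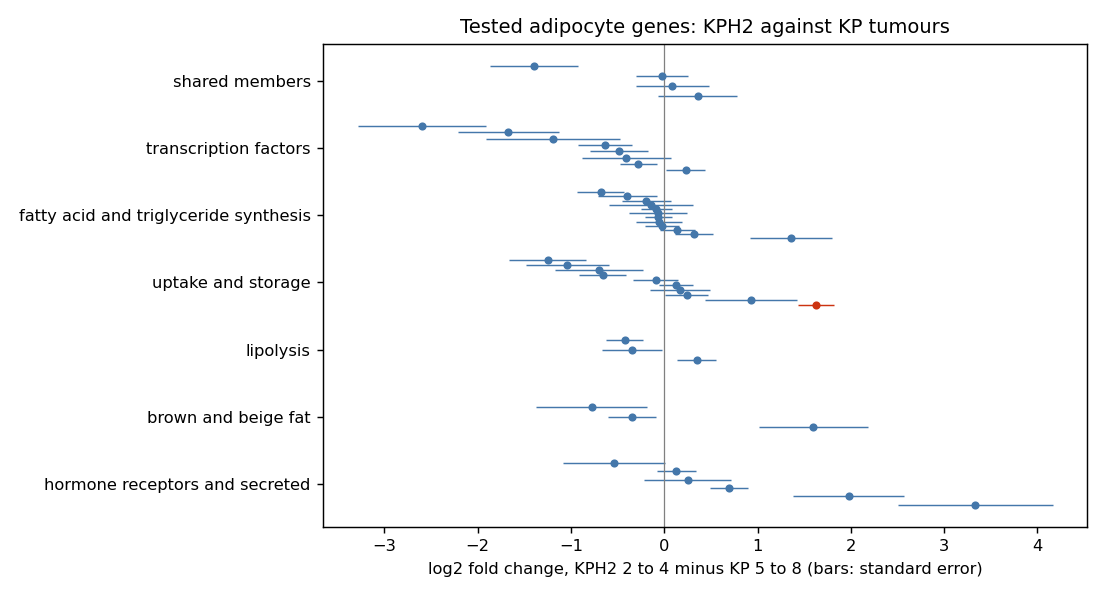
Log2 fold change of KPH2 2 to 4 minus KP 5 to 8 with its standard error from edgeR, 1 point per tested gene, for the 4 shared members and 6 roles of the wider set; red marks an adjusted p under 0.05. The single red point is Slc27a1 at 1.63, and the 4 members run from −1.40 for Fabp4 to 0.36 for Lpl.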

How the data were processed

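The authors processed the reads with CASAVA 1.8.2, aligned them with STAR 2.4 (GRCm38), and used HTSeq 0.6.1 to count uniquely aligned reads over RefSeq genes. The deposited raw counts of all 8 tumours were used. The authors also deposited log2 values from the regularized log transformation (rlog) of DESeq2 1.6, in a table of 7 tumours and one of 8. The table of 8 was used for the order of the tumours, and the table of 7 for nothing but its list of tumours. The study left out 1 knockout tumour as an outlier, and KPH2 1, absent from the table of 7, was taken to be it.

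Counts were compared in R 4.3.3 with edgeR 4.0.16 (TMM, low-count filter with minimum count 10 and minimum total count 15, robust quasi-likelihood test, no covariates) over KP 5 to 8 and KPH2 2 to 4, with p-values adjusted over every tested gene by Benjamini and Hochberg and a threshold of 0.05. CPM used TMM library sizes over all 8 tumours, and log2 CPM a prior count of 2. Poisson and Clopper-Pearson intervals (95%) were computed with scipy 1.17.1. Exact permutation tests covered every split of the tumours. On simulated counts with 200 changed genes of 14939, edgeR recovered 190 and called 16 others. Each changed gene had a log2 fold change of 2 up or down, and all genes had the same fixed dispersion. The simulation thus checks the code and does not measure sensitivity in these tumours. Gene positions and promoters came from RefSeq (GRCm38.p6, 8 of 10 members matched) and exon lengths from GENCODE vM21. Nothing beyond 1 library per tumour says how animals relate, so p-values measure the spread between these tumours.

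A further allele that both groups carried is not reported here. The members and gene lists were chosen with earlier results of these data known. The genes named were the 10 members, Epas1, the genes of the wider lists past the threshold or else the 3 with the smallest p, defining markers, and the 8 genes most correlated with the restricted members. Other genes, the liver and plasma list, the ranking by KP 8, the 3 promoters and the comparison of all 8 tumours without KP 8 were chosen after values were seen. Alternatives were all 8 tumours, other size factors, no filter or a mean count of at least 50, DESeq2 1.42.0, edgeR without robust estimates, a muscle marker covariate, a prior count of 0.5 and leaving out each tumour.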

Additional observations from a re-analysis of the deposited data

Results flagged for a closer look

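In groups of 4 tumours, a tumour was picked out where its gap to the nearest other tumour, divided by the range of the group, was above Dixon's 95% critical value. On the CPM scale 6 of the 36 groups examined had such a tumour. Chance gives about 1 in 20 for groups of normal values, a rate that does not apply where 3 of 4 tumours are at 0 or where sums reuse the values of single genes. KP 8 was picked out among the KP tumours for Plin1, with a ratio of 0.881 (1.28 CPM against 0.282 CPM in the next tumour). KP 8 was not picked out for the sum of the restricted genes (0.762), nor for Adipoq (0.816), Cfd (0.764), Lep (0.741), Retn (0.509) or Cidec (0.486). KPH2 2 was picked out among the KPH2 tumours for Lep, with a ratio of 1.0 that rests on 2 counts against 0 in the others, and for Pck1, with a ratio of 1.0 that rests on 1 count. KP 6 was picked out among the KP tumours for Ebf2, with a ratio of 0.891 (26.0 CPM against 7.85 CPM), and for Ucp1, the uncoupling protein of brown fat, with a ratio of 0.896 (7.91 CPM, from 56 counts, against 0.888 CPM). KP 6 was not high in the restricted members, of which it held 4 counts in all. For Epas1, KP 5 was the low tumour among the KP tumours, with a ratio of 0.866 (59.1 CPM against 83.0 CPM).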

How the results depend on the processing

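Of 245 recomputed values, 208 kept their direction and their side of the threshold, or their count within 1.5 times. The mean of the restricted members was instead counted as kept when it moved by less than the SD of the KP tumours. For the restricted genes with a tumour left out, the smallest possible permutation p was 0.0667 or 0.1. Their side of the threshold was thus fixed in advance, and only their direction could change. The number of genes called, 292, was 1 over all 8 tumours, 1179 with DESeq2, 4 with the muscle marker covariate, 4 over all 8 tumours without KP 8, 55 to 159 without any one of KPH2 2, KP 7, KP 6, KP 8, KPH2 4 and KPH2 3, and 349 without KP 5. The number of members called was 0 to 1 with a tumour left out, the 1 being Fabp4 without KP 5, whose log2 fold change ran from −1.67 there to −1.01 without KP 8. Over all 8 tumours without KP 8, Fabp4 was at −0.58 (adjusted p = 0.639 from edgeR). The number of wider genes called, 1, was 0 over all 8 tumours, 7 with DESeq2, 0 with the muscle covariate, 0 over all 8 tumours without KP 8, and 1 to 2 with a tumour left out, the 2 without KPH2 4. The sign of the log2 difference changed for Pparg (−0.017 with the muscle covariate, −0.10 to 0.30 with a tumour left out), Lpl (−0.20 with the muscle covariate, −0.17 to 0.61), Lipe (−0.13 to 0.16), Adipoq (−1.04 to 0.20) and Cfd (−0.084 over all 8 tumours, −0.59 to 0.84), and the cause was not tested. The mean log2 CPM of the restricted members differed by −0.68 between KPH2 and KP, and by −1.06 to −0.11 with a tumour left out, the smallest without KP 8. Slc27a1 kept its direction in every setting, with adjusted p from 4.1e-10 (DESeq2) to 0.125 (all 8 tumours without KP 8). The minimum mean count of 50 gave no value for members below it. The counts of the restricted members, 10 to 98 each over all tumours, limit what could be detected between groups. No paired analysis was possible because the groups share no replicate numbers.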

Other observations

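Genes of at least 25 counts in KP 8 were ranked by their CPM in KP 8 over that of the next highest tumour, with 0.1 CPM added to both, a ranking made after KP 8 was seen to stand apart. Among 13294 genes, the first 10 were Cbln4, Ahsg, Saa1, Saa2, Alb, Cps1, Fgb, Apob, Ano4 and Bmp3, of which 7 encode liver enzymes or plasma proteins. Adipoq ranked 17, Lep 24, Cfd 57, Cidec 86, Fabp4 102, Lipe 494 and Lpl 11428. Plin1, Pparg and Retn had fewer than 25 counts in KP 8 and were not ranked. A gene of low counts elsewhere, such as Adipoq, Lep or Cidec, enters the ranking only through KP 8, so these ranks are a description only. Hp, which encodes haptoglobin of liver and fat, ranked 25, with 20.6 CPM in KP 8 and 1.12 to 6.96 CPM in the other tumours. Cbln4, a secreted synaptic protein, was at 5.20 CPM in KP 8 and at 0 to 0.148 CPM elsewhere.

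The genes most like the restricted members over the 8 tumours, by Pearson's r between log2 CPM and the mean log2 CPM of the 6 genes, were Mafk (r = 0.971, Spearman's rho = 0.833), Fkbpl (0.939, rho = 0.857), Zfp710 (0.934, rho = 0.905), Dnajb3 (0.932, rho = 0.762), Crcp (0.929, rho = 0.976), A630033H20Rik (0.927, rho = 0.833), BC031181 (0.922, rho = 0.810) and Rab35 (0.913, rho = 0.762). The points share KP 8 as their highest tumour: without KP 8 and KP 7, the 2 tumours farthest from the median, r was 0.595 for Mafk, 0.850 for Fkbpl, 0.841 for Zfp710, 0.563 for Dnajb3, 0.807 for Crcp, 0.826 for A630033H20Rik, 0.621 for BC031181 and 0.579 for Rab35. These are descriptions over 8 libraries chosen among all tested genes. Mafk was at 27.3 CPM in KP 8 and 15 to 19.8 CPM elsewhere.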
